A study of Mus musculus with 4 samples.

Results

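The secreted antagonists of Wnt signalling examined here are 9 mouse genes, Wif1, Sfrp1, Sfrp2, Sfrp4, Frzb, Dkk1, Dkk2, Dkk3 and Sost. They were taken by name, and every probe set (a group of short array probes read as 1 value) whose annotation gave exactly 1 of these symbols was used. This gave 17 probe sets of 45037 tested, and 9 genes of 18193. Sfrp1 had 5 probe sets, Dkk1, Dkk3, Frzb and Sost had 2 each, and Wif1, Sfrp2, Sfrp4 and Dkk2 had 1 each.

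The cells came from the marrow of adult NOD.CB17-Prkdc scid/J mice, an immunodeficient strain whose scid mutation blocks the maturation of B and T cells, described in the design text as recipient animals. No treatment is named in the labels. The sort kept cells with the integrin CD51 and without CD45, CD31, Sca1 and lineage antigens, a combination used for osteoblasts, from the trabecular bone area (2 arrays) and from the long bone area (2 arrays). The submitters call the arrays of an area biological replicates. The mice behind each array, and whether animals were pooled, are not given, so p-values here measure the spread between these arrays, which may be technical. The series title places the work in a study of where blood stem cells sit in the marrow, and the comparison asks how cells of this sort differ between the areas.

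Wnt proteins act on a cell by binding a Frizzled receptor together with the co-receptor LRP5 or LRP6, which stabilises beta-catenin and switches on target genes. In bone this signal favours osteoblast formation, and secreted antagonists hold it back in different ways. WIF1 and the secreted Frizzled-related proteins, among them FRZB, bind Wnt proteins outside the cell. DKK1 and sclerostin, the product of Sost, bind the co-receptors instead.

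The promoters of Wif1, Dkk1 and Frzb are shown because Wif1 had the largest difference of the 9 genes, Dkk1 is a known target of beta-catenin signalling, and Frzb had a pair of probe sets that gave unlike differences. Each is the 250 bases before the annotated start in RefSeq, build GRCm38.p6, written 5′ to 3′ on the strand of the gene. Wif1 is at chr10:121033754-121034003 on the plus strand, Dkk1 at chr19:30549497-30549746 and Frzb at chr2:80447397-80447646, both on the minus strand. Capitals mark matches to 3 short motifs on either strand, CTTTGA for TCF/LEF (the factors that work with beta-catenin), ACCACA for RUNX and ACAAAG for SOX. The TCF/LEF and SOX motifs share the letters CTTTG when the SOX motif is read on the other strand.
Wif1: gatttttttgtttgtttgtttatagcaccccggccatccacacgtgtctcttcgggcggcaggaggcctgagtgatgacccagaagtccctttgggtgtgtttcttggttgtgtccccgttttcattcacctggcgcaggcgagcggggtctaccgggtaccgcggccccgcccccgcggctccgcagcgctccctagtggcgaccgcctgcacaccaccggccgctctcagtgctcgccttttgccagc
Dkk1: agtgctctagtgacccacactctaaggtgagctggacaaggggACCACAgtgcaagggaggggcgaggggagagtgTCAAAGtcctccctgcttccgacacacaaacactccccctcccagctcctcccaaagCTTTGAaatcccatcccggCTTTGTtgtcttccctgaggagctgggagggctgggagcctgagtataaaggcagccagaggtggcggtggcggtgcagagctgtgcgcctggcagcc
Frzb: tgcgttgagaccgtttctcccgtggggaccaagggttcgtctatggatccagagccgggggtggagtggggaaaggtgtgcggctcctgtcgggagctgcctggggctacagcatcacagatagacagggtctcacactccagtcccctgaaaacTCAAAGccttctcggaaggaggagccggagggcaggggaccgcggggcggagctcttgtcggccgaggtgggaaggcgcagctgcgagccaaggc

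The Wif1 window held 0 matches to the 3 motifs, the Dkk1 window 2 TCF/LEF matches, 1 RUNX match and 1 SOX match, and the Frzb window 1 TCF/LEF match. Of 32851 mouse promoter windows of the same length, 13.8% held the TCF/LEF motif, 14.0% the RUNX motif and 16.5% the SOX motif. Such matches describe letters and are no evidence of binding. Entries were found for 6 of the 9 genes. The other 3 windows, of Dkk2, Sfrp2 and Sost, held no TCF/LEF or RUNX match, and Dkk2 held 1 SOX match, 80 bases before the start.

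Each deposited value was taken as a log2 difference of a probe set from its own median over all 4 arrays. A value of 1 is therefore 2-fold above that median, values of different genes cannot be set against each other as levels, and presence or absence of a transcript cannot be read. A gene with several probe sets was given their mean. Differences are trabecular minus long bone area throughout, so a negative one means lower in the trabecular area. Long bone array 2 stood apart from the others: it had 2493 probe sets 2-fold or more away from the median, against 383 to 848 on the rest, and the Gapdh control probe set at the 5′ end stood -1.16 from the one at the 3′ end, against -0.09 to 0.31. The same difference of the Actb control, -0.04 on long bone array 2 and -0.07 to 0.44 on the rest, did not set it apart. The members are set against each long bone array on its own as well as against the pair.

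Wif1, which binds Wnt proteins directly, had by far the largest difference among the 9 genes, 13.9-fold lower in the trabecular area on average. Its value was -0.80 and -1.70 on trabecular arrays 1 and 2, against 4.29 and 0.80 on long bone arrays 1 and 2. Both trabecular arrays lay below both long bone arrays, but the long bone pair was itself 3.49 apart. The trabecular mean was -1.25 ± 0.63 and the long bone mean 2.54 ± 2.47 (SD, n = 2 each), a log2 difference of -3.79 (SE 1.21, 95% interval -7.00 to -0.59). With limma this gave an unadjusted p of 0.0295 and an adjusted p of 0.288 over all genes, so the difference did not pass the threshold of 0.05.

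The size of the Wif1 difference depended on which long bone array it was set against, while its direction did not. Against long bone array 1 the trabecular mean was 46.4-fold lower (log2 -5.54), and against long bone array 2 it was 4.14-fold lower (log2 -2.05). The fit without long bone array 1 gave an adjusted p of 0.0557 for Wif1 and the fit without long bone array 2 gave 0.0652. Both fits assume that the lone long bone array varies as the trabecular pair does. In the list of all 18193 genes Wif1 ranked 7 among the most negative differences and 2 by its span over the 4 arrays (5.99), after the joint lubricant gene Prg4. Its value on long bone array 1 also ranked 2 among all genes there, and that on long bone array 2 ranked 454.

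**Figure D1:**
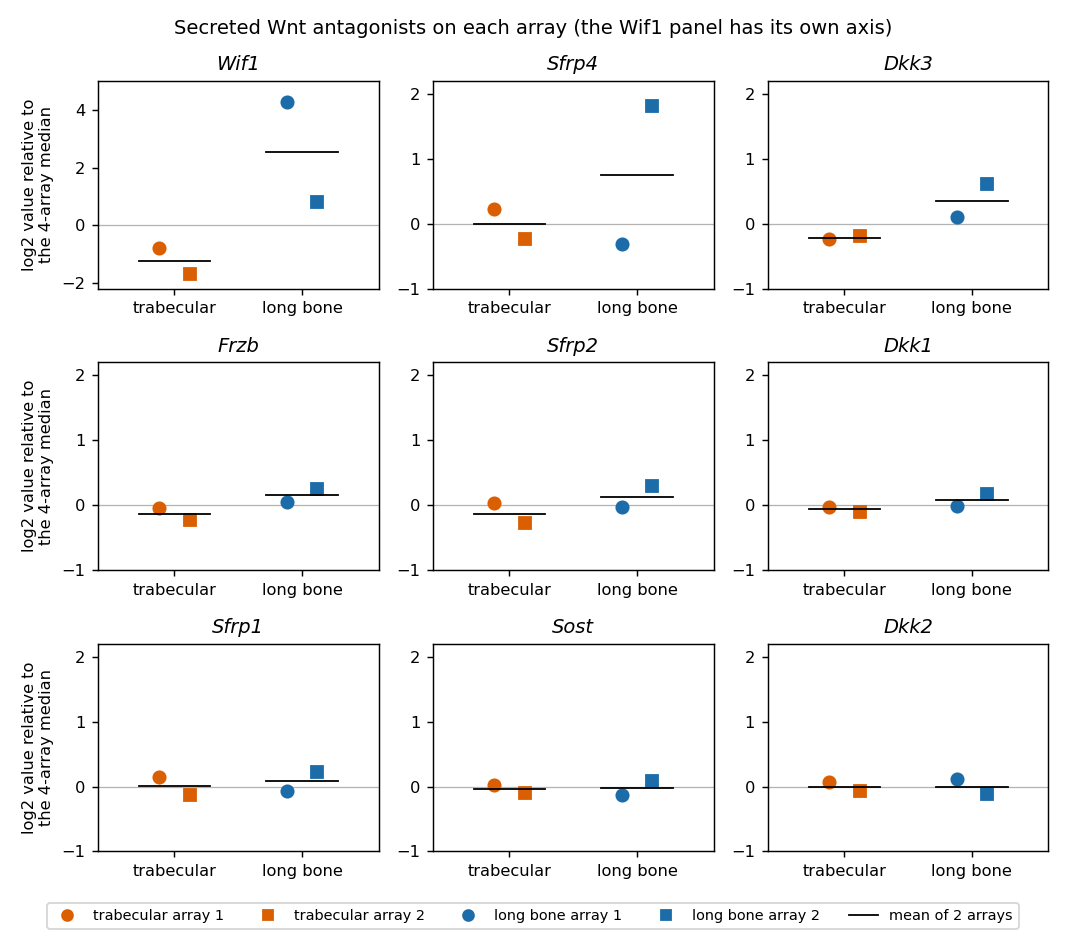
Log2 value relative to the 4-array median (y axis) of the 9 secreted Wnt antagonists in the trabecular and the long bone area. Each point is 1 array, with circles for array 1 and squares for array 2, and each bar is the mean of 2 arrays. The Wif1 panel has a wider axis than the rest. Wif1 is at 4.29 on long bone array 1, Sfrp4 is at 1.81 on long bone array 2, and the 6 genes from Frzb to Dkk2 stay within 0.29 of the median.

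Of the secreted Frizzled-related proteins, decoys that carry a Wnt-binding domain like that of the receptors, Sfrp4 had the widest spread. Sfrp4 was at 0.23 and -0.23 on trabecular arrays 1 and 2, against -0.31 and 1.81 on long bone arrays 1 and 2. It was high on long bone array 2 alone, and the areas overlapped. The trabecular mean was 0.00 ± 0.32 and the long bone mean 0.75 ± 1.50 (SD, n = 2 each), a difference of -0.75 (95% interval -2.70 to 1.20, limma adjusted p = 0.646), and of -0.44 after quantile normalization. Against long bone array 2 the trabecular mean was 3.51-fold lower (log2 -1.81), and against long bone array 1 it was 0.31 higher. The fit without long bone array 1 called Sfrp4 (adjusted p = 0.0374), and in that fit 1603 genes passed.

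Frzb, a Frizzled-related protein known from cartilage, was at -0.05 and -0.23 on trabecular arrays 1 and 2, against 0.05 and 0.25 on long bone arrays 1 and 2. The areas did not overlap, and the difference was -0.29 (95% interval -0.68 to 0.10, adjusted p = 0.408). Its pair of probe sets gave unlike values, with a difference of -0.55 for 1416658_at (95% interval -1.01 to -0.10, adjusted p over all probe sets 0.265) and of -0.03 for 1448424_at (-0.41 to 0.36).

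Sfrp2 was at 0.03 and -0.28 on trabecular arrays 1 and 2, against -0.03 and 0.29 on long bone arrays 1 and 2, with a difference of -0.26 (95% interval -0.76 to 0.24). Sfrp1 was at 0.14 and -0.13, against -0.07 and 0.23 on the long bone arrays, with a difference of -0.07 (-0.54 to 0.40). The areas overlapped for both genes. The 5 probe sets of Sfrp1 did not point one way. Their differences ran from -0.63 for 1428136_at, where the trabecular arrays lay below the long bone arrays, to 0.39 for 1438620_x_at, where they lay above. The suffix x marks a probe set whose probes may also match other transcripts.

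Among the Dickkopf genes, Dkk3 had the largest difference. Dkk3, a divergent member of the family that is not known as an LRP blocker of the DKK1 kind, was at -0.23 and -0.19 on trabecular arrays 1 and 2, against 0.11 and 0.61 on long bone arrays 1 and 2. Both trabecular arrays were below both long bone arrays. The trabecular mean was -0.21 ± 0.03 and the long bone mean 0.36 ± 0.36 (SD, n = 2 each), 1.48-fold lower in the trabecular area (log2 -0.57, 95% interval -1.11 to -0.03). The unadjusted p was 0.0436 and the adjusted p 0.313 with limma. Both of its probe sets were lower with no overlap, by -0.52 (1417312_at) and -0.62 (1448669_at). On trabecular arrays 1 and 2, 1417312_at was at -0.37 and -0.13, and 1448669_at at -0.08 and -0.25. The small trabecular SD of the gene comes from averaging these opposite deviations. The trabecular mean was 0.32 below long bone array 1 and 0.82 below long bone array 2.

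Dkk1, the best known LRP blocker of the family, was at -0.02 and -0.10 on trabecular arrays 1 and 2, against -0.01 and 0.17 on long bone arrays 1 and 2. The areas did not overlap, though trabecular array 1 and long bone array 1 lay close together, and the difference was -0.14 (95% interval -0.49 to 0.22). Dkk2, which can block or aid the signal depending on context, was at 0.07 and -0.07 in the trabecular area, against 0.12 and -0.12 in the long bone area. The long bone arrays lay outside the trabecular pair on either side, and the difference was 0.00 (-0.39 to 0.40).

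Sost, the sclerostin gene of osteocytes, was at 0.03 and -0.10 on trabecular arrays 1 and 2, against -0.13 and 0.09 on long bone arrays 1 and 2. The areas overlapped and the difference was -0.01 (95% interval -0.39 to 0.36). Its pair of probe sets pointed in opposite directions, at 0.21 for 1421245_at and -0.24 for 1450179_at. Of the 6 osteocyte genes looked at, Sost among them, there were 2 with no overlap, both lower in the trabecular area. These were the bone matrix protein gene Dmp1 and the phosphate regulator Phex, with differences of -0.96 and -0.93. Over all genes 21.4% were lower with no overlap.

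The gene differences ran from Wif1 (-3.79) through Sfrp4, Dkk3, Frzb, Sfrp2, Dkk1, Sfrp1 and Sost to Dkk2 (0.00). The 95% interval of every gene in this order overlapped that of its neighbour, and the wide interval of Wif1 overlapped that of Sfrp4. With limma, 0 of the 9 genes passed an adjusted p of 0.05, where 0.0% of all 18193 genes did. At an unadjusted p under 0.05 there were 2 genes, Wif1 and Dkk3, both lower, beside 4.62% of all genes lower at that p and 15.5% in either direction. With 2 arrays an area, the smallest two-sided p of an exact permutation test is 0.333.

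Of the 9 genes 8 had a difference below 0, as had 45.4% of all genes. Lower with no overlap were 4 of 9 (Wif1, Dkk3, Frzb and Dkk1), beside 21.4% of all genes, and 0 were higher with no overlap, beside 29.9%. Wif1 was the 1 gene at least 2-fold apart, beside 2.89% of all genes. The median difference was -0.26 over the 9 genes and -0.20 without Wif1, and 0.03 over all genes tested. Set against long bone array 1 the median of the 9 was -0.10, and against long bone array 2 it was -0.39, while over all genes these medians were 0.05 and 0.01. Long bone array 2 held the highest value for 7 of the 9 genes, beside 35.2% of all genes. Without long bone array 2, 6 of the 9 genes had a difference below 0, beside 7561 of all 18193 genes. Without long bone array 1 it was 8 of 9, beside 8900 of all genes, and Dkk2 was at 0.12. These 8 were then lower with no overlap, beside 7349 of all genes, and Dkk2 was higher with no overlap. A lone array makes overlap rarer.

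**Figure D2:**
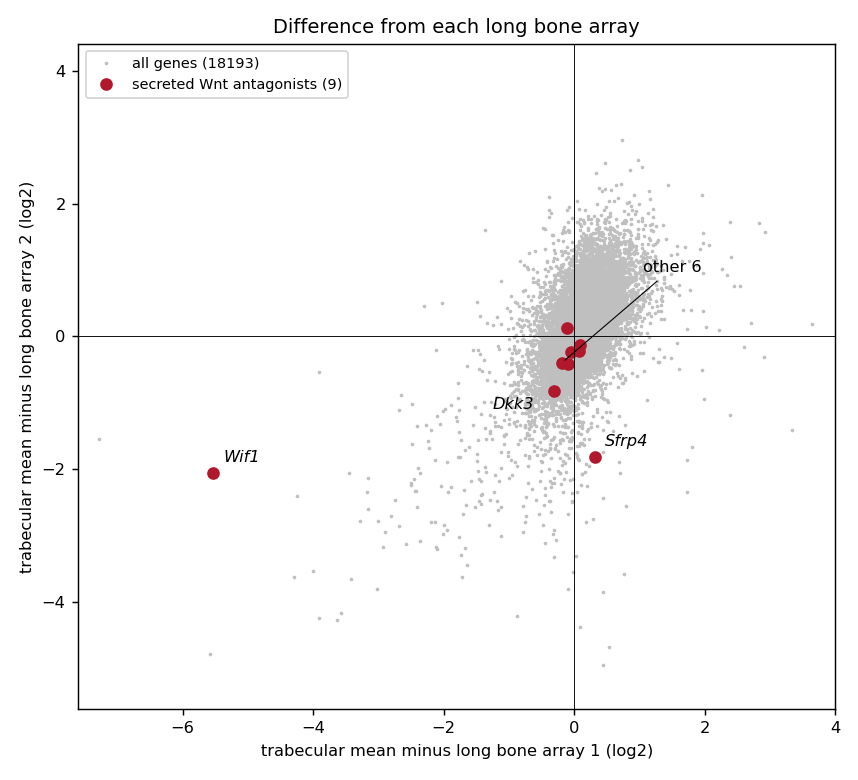
Trabecular mean minus long bone array 1 (x axis, log2) against trabecular mean minus long bone array 2 (y axis, log2) for all 18193 genes in grey and the 9 secreted Wnt antagonists in red. Both axes use the same trabecular arrays. Wif1 lies at -5.54 and -2.05, Sfrp4 at 0.31 and -1.81, Dkk3 at -0.32 and -0.82, and the other 6 lie within the main cloud.

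Over single probe sets 13 of 17 had a difference below 0, as had 51.1% of all probe sets. There were 7 lower with no overlap, beside 26.2% of all, and 1 higher with no overlap, the x probe set of Sfrp1, beside 25.9%. Brightness moved with the overlap. Centring removed the levels, but the numerical steps of the stored values still show, for most probe sets, whether they came from levels of 8 and above or of 4 to 8 on the log2 scale. A single reading can be wrong. Of the members' probe sets 8 read as 8 and above and 9 as 4 to 8, and none read dimmer. In the dimmer group 7 of 9 had a difference below 0, beside 59.5% of all probe sets read this way. For the brighter group it was 6 of 8, beside 34.9%. In the dimmer group 6 of 9 were lower with no overlap, beside 31.8% of all probe sets read this way, and in the brighter group 1 of 8, that of Wif1, beside 16.7%. The median difference over all probe sets was 0.17 for the brighter and -0.06 for the dimmer group. In Frzb, Dkk1 and Sost, which have 1 probe set of each kind, the dimmer one was the more negative each time. The part of brightness in these differences was not tested.

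**Figure D3:**
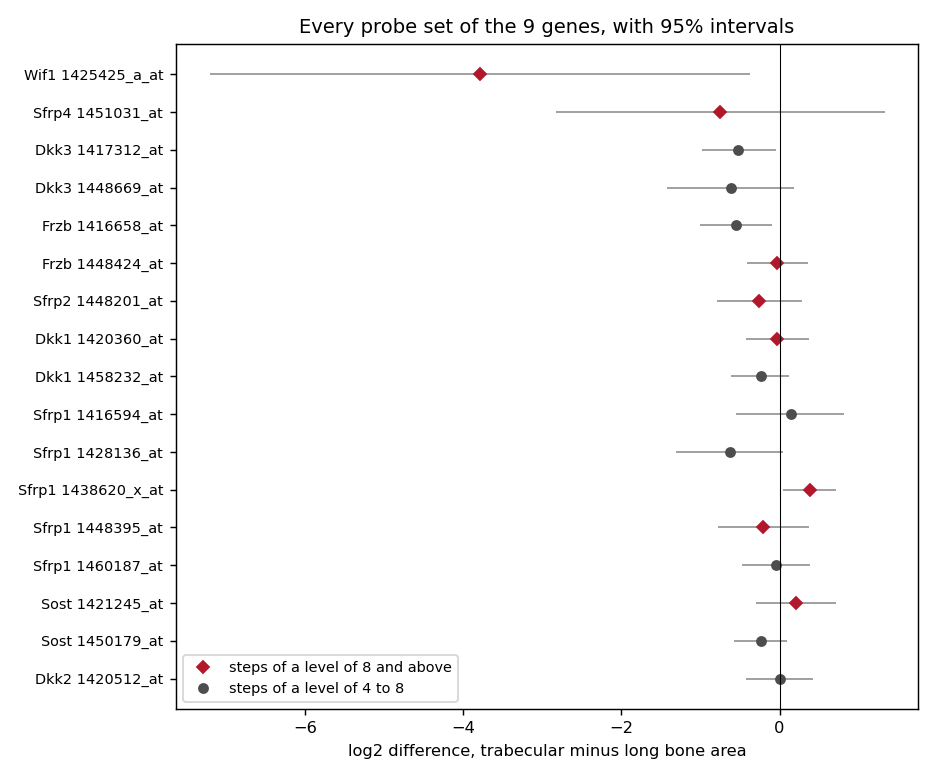
Log2 difference, trabecular minus long bone area (x axis), of the 17 probe sets of the 9 genes (rows), with 95% intervals from the limma fit. Diamonds are probe sets whose stored numbers have the steps of a level of 8 and above, circles those with the steps of 4 to 8. The interval of Wif1 runs from -7.21 to -0.37, and the 5 probe sets of Sfrp1 lie on both sides of 0.

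The genes whose values over the 4 arrays were most like those of Wif1, by Euclidean distance on the log2 scale, were Chad (distance 1.42), Cilp (1.63) and Ackr3 (2.00). Chad encodes chondroadherin, a cartilage matrix protein, Cilp a protein of the cartilage intermediate layer, and Ackr3 a scavenging receptor for the chemokine CXCL12. Chad was at -1.15 and -1.33 on trabecular arrays 1 and 2, against 3.01 and 1.15 on long bone arrays 1 and 2. Cilp was at -0.17 and -0.54, against 3.56 and 0.17 on the long bone arrays. Like Wif1, these genes were highest on long bone array 1, which follows from their choice by nearness over the same 4 arrays. Prg4, which has a larger span, was at -0.76 and -0.79, against 6.50 and 0.76 on the long bone arrays.

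Markers of cartilage cells were lower in the trabecular area together with Wif1. For the cell type lists here and below, the shares over all genes are 45.4% lower and 21.4% lower with no overlap. Of 12 chondrocyte markers 12 were measured, and 12 were lower with no overlap, with a median difference of -3.04 and the largest for the matrix protein gene Comp (-5.18). Their median value was -1.42 and -1.37 on trabecular arrays 1 and 2, against 1.65 and 1.31 on long bone arrays 1 and 2. The list median was thus nearly level between the long bone arrays where Wif1 was not. Of the 12 markers, 8 were highest on long bone array 1, beside 2414 of all 18193 genes. The other 4 were highest on long bone array 2, beside 6411 of all genes. Of 6 genes of the joint surface and synovium 4 were lower, and the median was -0.13, Prg4 and Cilp being the 2 that were at least 2-fold apart. Of 10 osteoblast markers 6 were measured here, all 6 were lower with no overlap, and the largest difference was that of the bone collagen gene Col1a2 (-2.46). None of these marker genes passed the adjusted threshold, and the part of cartilage, joint or osteoblast RNA in the Wif1 difference was not tested. In such bulk samples fewer cells of a type and less RNA per cell cannot be told apart.

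For Sfrp4 the nearest genes were Gdpd2 (distance 0.15), Agt (0.25) and Alas2 (0.26). Gdpd2 is a phosphodiesterase gene known from osteoblasts, Agt encodes angiotensinogen, and Alas2 the first enzyme of haem synthesis in red cell precursors. Gdpd2 was at 0.24 and -0.27 on trabecular arrays 1 and 2, against -0.24 and 1.94 on long bone arrays 1 and 2. All 3 were high on long bone array 2 alone, as Sfrp4 was.

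Markers of reticular stroma, the CXCL12-rich cells of the marrow, moved with Sfrp4 across arrays. The 9 genes of that list were highest on long bone array 2 in 9 of 9 cases, beside 35.2% of all genes. Long bone array 2 is the array that stood apart from the others. The median value of the list was 0.09 and -0.59 on trabecular arrays 1 and 2, against -0.07 and 1.76 on long bone arrays 1 and 2. The largest difference in the list was that of Esm1, with 4.71 on long bone array 2. The endothelial list, of cells that the sort against CD31 removes, had a median of 0.01 (3 of 6 lower), with the von Willebrand factor gene Vwf at 1.62 on long bone array 2. The list of tendon and periosteal fibroblast genes had a median of -0.74 (9 of 10 lower), which was -0.18 against long bone array 1 and -1.15 against long bone array 2. Its largest difference was that of the collagen-binding Fmod (-3.96), which, unlike Sfrp4, was higher on long bone array 1 than on long bone array 2, by 0.68. The part of these cells in the Sfrp4 value was not tested.

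**Figure D4:**
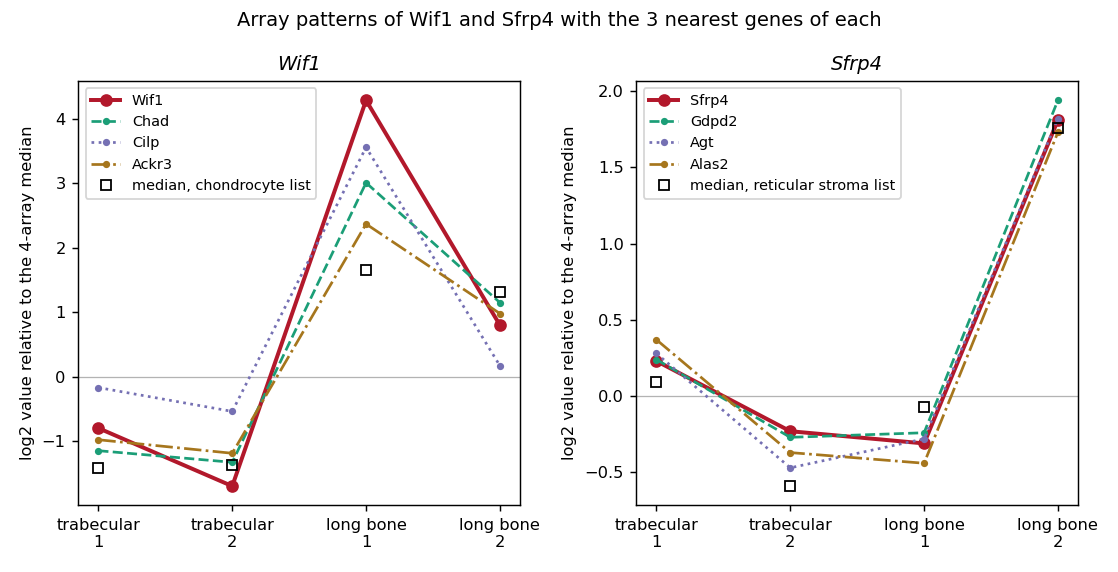
Log2 value relative to the 4-array median (y axis) on each of the 4 arrays (x axis) for Wif1 (left) and Sfrp4 (right), each with its 3 nearest genes by Euclidean distance. Squares show the median of the chondrocyte list (left) and of the reticular stroma list (right), and lines only join the points of 1 gene. Wif1, Chad, Cilp and Ackr3 are highest on long bone array 1, and Sfrp4, Gdpd2, Agt and Alas2 on long bone array 2. For the nearest genes this follows from how they were chosen.

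The sorted cells could be checked against their sorting antigens only as differences. Itgav, which encodes CD51, differed by -0.13 (95% interval -0.46 to 0.20), Pecam1 (CD31) by -0.02 and Ptprc (CD45) by -0.34 (-1.41 to 0.73). Ly6a (Sca1) was not analysed here. Of 14 blood cell genes 11 were measured, 5 lower and 6 higher, with a median of 0.03, and the integrin gene Itgam of myeloid cells had the largest difference, 1.68.

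Other secreted Wnt inhibitors, which were not among the 9, differed little. Of 9 measured genes 7 were lower, 5 of them with no overlap, and 0 passed the test, with a median of -0.14. For this list and the pathway lists below, the shares over all genes are 45.4% lower and 21.4% lower with no overlap. The largest differences with no overlap were those of Draxin (-0.30), a secreted guidance protein that binds the co-receptors, and Notum (-0.19), an enzyme that strips the lipid from Wnt proteins. Among membrane inhibitors, of which 6 of 7 were measured, Apcdd1 and the receptor-degrading ligase Znrf3 differed by -0.34 and -0.30, and the list median was -0.10. Kremen1, which helps DKK1 remove the co-receptors from the surface, differed by 0.00.

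Receptors, the sites at which DKK1 and sclerostin act among them, were lower in 12 of 16 cases, 5 with no overlap, and 0 passed the test. Over all genes 45.4% were lower, and 21.4% were lower with no overlap. Fzd9 and the WNT5A receptor gene Ror2 had the largest differences with no overlap, -0.44 and -0.41. The co-receptor Lrp6 was at -0.08 and -0.06 on trabecular arrays 1 and 2, against 0.13 and 0.23 on long bone arrays 1 and 2, a difference of -0.26. Lrp5 overlapped between the areas, with a difference of 0.01.

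Of 20 Wnt ligands and secretion genes 9 were lower and 11 higher, with a median of 0.01, and 0 passed the test. Wnt4 had the largest difference, -0.86 (95% interval -1.69 to -0.02, adjusted p = 0.318), with -0.18 and -0.34 on trabecular arrays 1 and 2, against 0.17 and 1.02 on long bone arrays 1 and 2. Without long bone array 1 the difference was -1.28, and without long bone array 2 it was -0.43. Wnt8b differed by -0.54 as the mean of its 3 probe sets and by -0.13 as their median. Higher with no overlap were Wls, the carrier that brings Wnt proteins to the cell surface (0.26), and Wnt3 (0.19). R-spondins, secreted proteins that strengthen the signal, and their receptors were lower in 6 of 7 cases, with Rspo4 (-0.22) and the receptor gene Lgr6 (-0.20) as those with the largest differences and no overlap.

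Inside the cell, 5 of 14 transduction genes were lower and 9 higher, with a median of 0.07. Bcl9, a partner of beta-catenin, differed by -0.58 (adjusted p = 0.256) and the transcription factor gene Tcf7l2 by -0.38 (-0.18 with only the probe sets that read as 4 and above), while Pygo2 and the kinase gene Gsk3a differed by 0.57 and 0.56. Of 14 target genes 13 were measured, and 9 were lower. Axin2, a feedback inhibitor widely used as a readout of beta-catenin signalling, was at 0.01 and 0.11 on trabecular arrays 1 and 2, against -0.01 and -0.02 on long bone arrays 1 and 2. That is a difference of 0.07 (95% interval -0.25 to 0.39). Tnfrsf11b, the osteoprotegerin gene, differed by -1.16 and was high on long bone array 1 alone, at 1.97. With only the probe sets that read as 4 and above kept, it differed by -0.09. Ccn4 differed by -0.67 (95% interval -1.03 to -0.31, adjusted p = 0.240), and the hyaluronan receptor gene Cd44 differed by 0.64. In the 7 lists together 51 of 85 measured genes were lower, with a median of -0.07, and 0 passed the test.

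**Figure D5:**
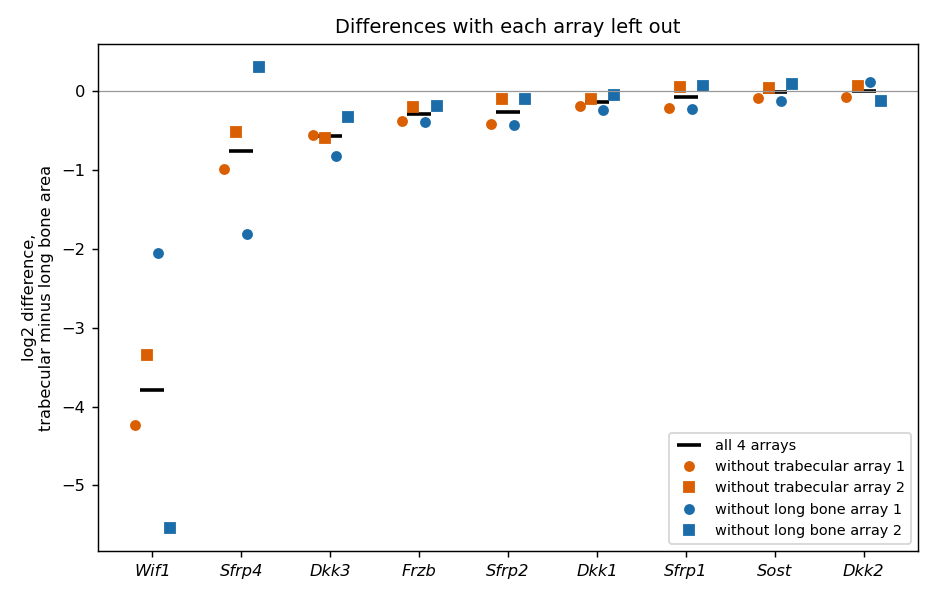
Log2 difference, trabecular minus long bone area (y axis), of each secreted Wnt antagonist (x axis) with all 4 arrays (black bars) and with 1 array left out (orange for a trabecular, blue for a long bone array, circles for array 1 and squares for array 2). Wif1 ranges from -5.54 to -2.05, and Sfrp4 from -1.81 to 0.31, its sign turning without long bone array 2.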

How the data were processed

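RNA of the sorted cells was amplified and measured with biotin labels on Affymetrix arrays, as the labels and the design text describe. A human array is named there, while the probe sets are those of a mouse array and were named from its annotation. The deposited values were taken as log2 expression, and every fold given rests on this. RMA is named in the submitters' processing notes, and the values are also centred, since the median over the 4 arrays is 0 for every probe set to within 5e-07. Neither the log base nor how the values were centred or filtered is given in the sources used here. RMA compresses the folds of dim genes.

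Of 45101 probe sets, the 64 for controls were left out. Of the rest, 34945 were annotated to 1 gene. Their gene IDs were looked up in RefSeq (GRCm38.p6), which changed 0 symbols. Gene values are means over these probe sets. Trabecular and long bone arrays were set against each other in limma 3.58.1 under R 4.3.3, with lmFit and eBayes without trend and 2 residual degrees of freedom, over all probe sets and over all genes, with Benjamini-Hochberg adjustment at 0.05, and the fit was tested on simulated data. The replicate number was not used as a block.

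Beside the 9 members, named genes are the sorting antigens, up to 2 genes with no overlap per pathway list and direction, the largest difference per marker list, and the 3 nearest genes of each member that spans at least 2 on the log2 scale. Lrp5, Lrp6, Kremen1 and Phex were named for their role or after their values were seen. The members and lists were chosen with earlier results of these data known. Alternatives were quantile normalization, subtracting array medians, leaving out each array, a replicate block, other variance estimates, a filter on dim probe sets and medians over probe sets. Having only 2 arrays an area limits the precision of every value.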

Additional observations from a re-analysis of the deposited data

How the results depend on the processing

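Wif1, Sfrp2, Frzb, Dkk1 and Dkk3 had a negative gene difference under every alternative that gave a value, and no member passed the adjusted threshold with all 4 arrays in the limma fit. Leaving out each array in turn, with a lone array assumed to vary like the other area, gave 0 to 1603 called genes. The 1603 were called when long bone array 1 was left out. Leaving out long bone array 2 gave 1, Prg4. The cause was not tested. The gene difference ranged from -5.54 to -2.05 for Wif1, -0.22 to 0.07 for Sfrp1, -1.81 to 0.31 for Sfrp4 (gene and probe set), -0.12 to 0.12 for Dkk2 (gene and probe set), -0.82 to -0.32 for Dkk3 and -0.12 to 0.09 for Sost. Sfrp4 and Dkk3 were called without long bone array 1, as were Wnt4, Pygo2, Gsk3a, Comp, Prg4, Fmod, Esm1, Vwf, Itgam, Chad, Ackr3 and Gdpd2. Single probe sets ranged from -0.15 to 0.09 for 1420360_at (Dkk1), -0.12 to 0.07 for 1448424_at (Frzb), and, for Sfrp1, -0.16 to 0.43 for 1416594_at, -0.42 to 0.01 for 1448395_at and -0.17 to 0.07 for 1460187_at. Other named genes whose sign turned were Esm1 (-4.95 to 0.45), Vwf (-1.62 to 0.11), Ptprc (-0.88 to 0.20), Pecam1 (-0.09 to 0.05), Gdpd2 (-1.96 to 0.23), Agt (-1.92 to 0.19) and Alas2 (-1.73 to 0.44). Members lower numbered 6 to 9, members lower with no overlap 4 to 8, and members at least 2-fold apart 1 to 2. Over all 18193 genes, those lower numbered 7561 to 8900 in these fits, and those lower with no overlap 5208 to 7349. Quantile normalization gave -0.03 for Dkk2 (gene and probe set) and 0.01 for Sost. A further fit kept only probe sets with the steps of 8 and above, which leaves fewer probe sets per gene. It gave -0.03 for both Frzb and Dkk1, 0.09 for Sfrp1, 0.21 for Sost and 0.60 for Ptprc. Dkk2 and Dkk3 have no such probe set. Of the 7 members left, 5 were lower, 1 of them with no overlap, and the members' median was -0.03. Over all 8693 genes in that fit, 2662 were lower, 1215 with no overlap, and the median was 0.2. Ordinary t statistics called 1 gene and 1 probe set, and a prior variance by brightness band called 2 probe sets.

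The replicate numbers are not known to pair the arrays: deviations of same-numbered arrays correlated at -0.181 (2 pairs). With the replicate number as a block limma called 0 genes and 0 probe sets, with 2450 genes and 5707 probe sets at an unadjusted p under 0.05. The crossed pairing, chosen after seeing the data, also called 0 of each, with 2709 and 7340, and without a block these were 2811 and 7325. In this design a block leaves the differences themselves as they are.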
